A study of Arabidopsis thaliana with 27 samples.

Results

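The end of a tracheary element time-course was compared with its start: the 3 arrays collected at 96 h were set against the 3 collected at 0 h, and each 96 h array was also set against the 0 h array of the same time-course letter, A, B or C. All 22743 probe sets that are no controls and have a value on every array were compared, which is every tested probe set of the series. The 6 arrays are 6 of 27, since RNA was taken at 9 times, every 12 h, in 3 independent time-courses. The cells were a habituated suspension culture of Arabidopsis thaliana, ecotype Col-0, a line that keeps dividing without added hormones. At 7 days of age they were moved into fresh medium with the auxin NAA, the cytokinin BAP and epibrassinolides. The labels describe the 0 h cells as undifferentiated and dividing, and the 96 h cells as having finished their secondary walls and preparing to die and to be lignified afterwards. Cells kept without hormones were not analysed here, so that transfer to fresh medium, hormones and age of the culture cannot be told apart.

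Tracheary elements are the conducting cells of xylem. They expand, lay down a patterned secondary wall of cellulose and xylan, break down their own contents and are lignified, in part after death, with peroxidases and laccases oxidising the lignin precursors. In suspension culture part of the cells take this path and the others stay alive, so every sample is a mixture. In such bulk RNA, fewer cells of a type and less RNA per cell cannot be told apart.

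The values are log2 levels, on which a difference of 1 is a doubling. On the 6 arrays the medians lay between 0.880 and 0.989, the highest level was 12.26 and 334 to 978 probe sets stood at exactly 0, the floor of the table. Over the whole series 11868 probe sets, 52.2%, stayed under 2 on all 27 arrays, and differences that start or end near the floor are understated. Precision is limited by the number of arrays, 3 a time. The available annotation names part of the array, with 1 probe set for each of 13354 genes, and most genes carry a locus tag alone. Here and below, a gene is called measured if it could be matched to a probe set by name. Another 8729 tested probe sets are not in the annotation, so a gene that is not measured in this sense may still be on the array. Of 17 tracheary element markers 2 were measured, IRX15 and GUT2 (IRX10), and their log2 levels summed to 1.42 to 1.53 on the 0 h arrays. At 96 h this sum was 6.16 in A, 2.79 in B and 2.36 in C. The 2 markers of dividing cells matched by symbol, AUR1 and AUR2, summed to 9.18 to 10.55 at 0 h and 9.85 to 10.53 at 96 h. MCM7, a further marker of dividing cells, carries the symbol PRL here and is not in this sum. It stood at 3.470, 3.013 and 3.123 in A, B and C at 0 h and at 2.935, 3.125 and 2.972 at 96 h. No marker of fibres or of epidermis was measured. The difference between the 3′ and 5′ GAPDH control probe sets, a sign of RNA integrity, averaged 1.92 at 0 h and 2.01 at 96 h, but by letter it went from 0.531 to 1.65 in A, from 3.74 to 2.99 in B and from 1.5 to 1.41 in C. Its part in the results was not tested beyond 1 fit with it as a covariate.

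The 96 h array of time-course A stood apart from those of B and C. Across probe sets, the 96 h arrays of B and C correlated with each other at r = 0.985, and with that of A at 0.946 and 0.951. The plot of likeness to earlier times shows where each array lay. The array of A was most like the 72 h arrays (r from 0.968 to 0.974) and less like the 0 h arrays (0.913 to 0.937). The arrays of B and C reached 0.981 and 0.989 with 84 h arrays and 0.963 and 0.973 with 0 h arrays. The reason was not tested. Results that rest on this array are given with and without it.

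**Figure D1:**
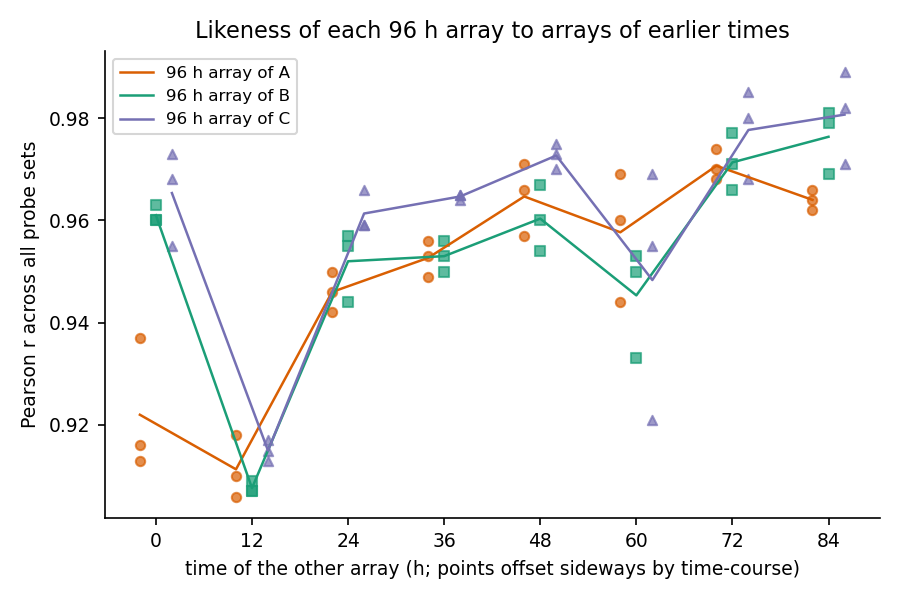
Pearson correlation across 22743 probe sets (vertical axis) of each 96 h array with every array of each earlier time (horizontal axis, hours); points are single arrays and lines join their means. The 96 h array of A peaks at 72 h, between 0.968 and 0.974, while those of B and C reach 0.981 and 0.989 at 84 h and lie higher than A at 0 h.

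In the comparison of 96 h with 0 h, 340 probe sets rose and 685 fell at a Benjamini-Hochberg adjusted p under 0.05 in limma's moderated test, 1.49% and 3.01% of those tested. Among genes, 178 of 13354 rose and 314 fell, 1.33% and 2.35%. The median difference of the probe sets that rose was 1.32 on the log2 scale and that of those that fell was -1.27, and 101 rose and 129 fell by more than 2. The 3 time-courses had the same sign for 338 of the 340 and 678 of the 685, against 35% of all probe sets. The calls rest on the mean of these same differences, so this agreement is no separate support for them. With the letter as a block, which the pairing of the arrays allows, 578 probe sets rose and 976 fell (311 and 462 genes).

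The calls lean on the spread pooled over all 9 times. In a fit of the 6 arrays alone, 16 probe sets rose and 15 fell, or 7 and 9 with the letter as a block, and of the 60 called genes named here 8 stayed called in the first of these fits: GH3.1, GH3.3, SBTI1.1, AT2G43870, PRXR1, BGLU44, CaS and PSBY. Without the 96 h array of A, 213 probe sets rose and 399 fell, of which 167 and 378 were also called with it. Without all arrays of time-course B, 107 rose and 304 fell, and 26 of the 60 genes lost their call.

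**Figure D2:**
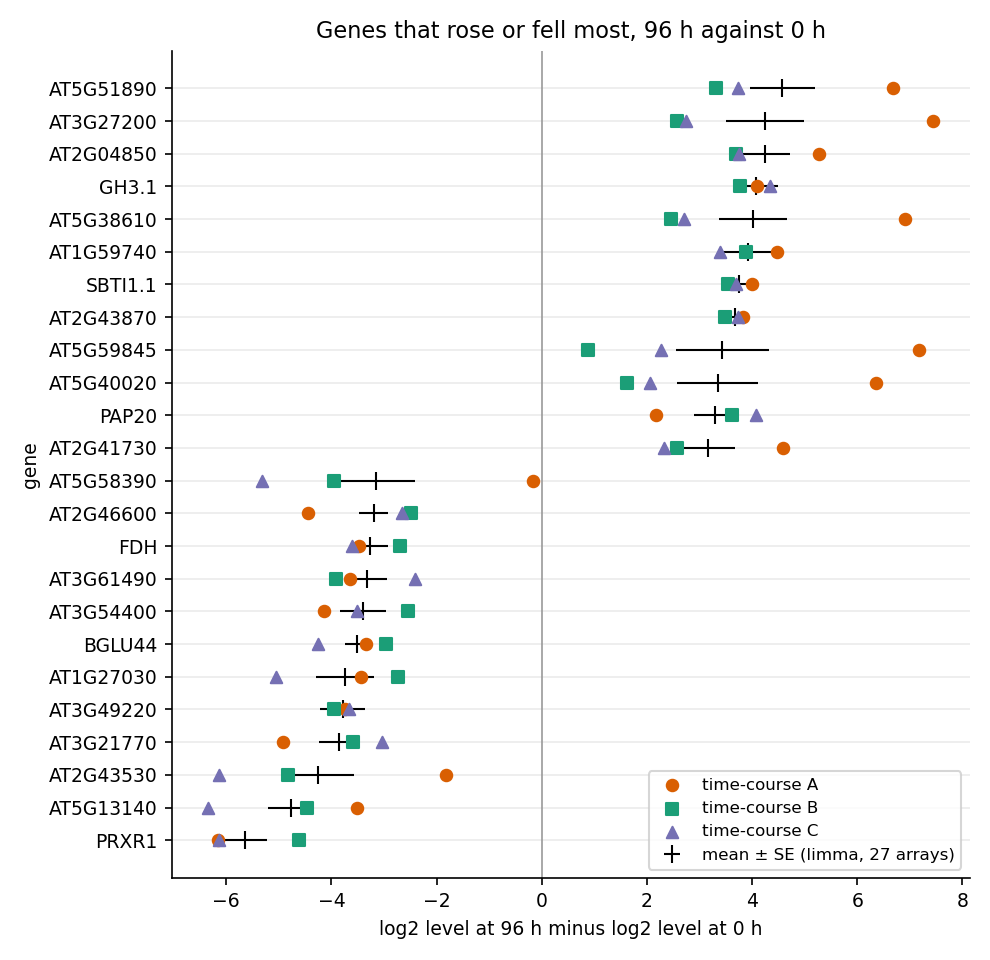
Log2 level at 96 h minus 0 h (horizontal axis) by gene (vertical axis). Shown are the 12 genes with the largest rise and the 12 with the largest fall. Coloured points are the time-courses A, B and C. Black bars are the limma mean with its moderated standard error, which pools the spread over all times. For AT3G27200 the point of A lies at 7.45 and those of B and C at 2.56 and 2.74, while for GH3.1 the 3 points lie between 3.77 and 4.35.

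Auxin response genes were among those that rose most clearly. GH3.1 encodes an enzyme of the family that joins auxin to amino acids, a negative feedback on the hormone. In time-courses A, B and C, in this order here and below, its log2 level was 0.33, 0.36 and 0.36 at 0 h and 4.44, 4.13 and 4.71 at 96 h. Every 96 h array was far above every 0 h array, and the difference was 4.07 ± 0.42 (moderated SE, n = 3 and 3, adjusted p = 3.05e-06). Here and below the SE is limma's, from the spread pooled over all times in the fit. It is therefore not the spread of the 0 h and 96 h arrays alone, which can be wider. For AT5G59845, given below, the SE was 0.88, while the SD was 0.35 at 0 h and 3.07 at 96 h. GH3.3, of the same family, went from 1.03, 0.78 and 0.76 to 2.81, 3.15 and 3.48, again without overlap (2.29 ± 0.22, adjusted p = 9.94e-07). IAA29 encodes a repressor of the Aux/IAA family, itself induced by auxin. It stood at 0.75, 0.47 and 0.57 at 0 h and at 4.08, 2.47 and 1.83 at 96 h (2.19 ± 0.47, adjusted p = 0.00702), with A highest. Without the 96 h array of A its difference was 1.55 and its call ended (adjusted p = 0.0586). These are the 3 of 14 measured auxin response genes that rose, against 1.33% of all genes, and none fell. The list's median difference was 0.14, against 0.02 over all genes. Its member IAA30 reached 4.85 in A but 1.35 and 1.6 in B and C, and was not called (adjusted p = 0.162).

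Genes for enzymes of the wall and of the space outside the cell changed in both directions. SBTI1.1, a subtilase, a serine protease of a mostly secreted family, had levels of 1.61, 1.49 and 1.07 at 0 h and 5.62, 5.04 and 4.76 at 96 h. The groups did not overlap and the rise was 3.75 ± 0.33 (adjusted p = 3.29e-07). The mean of SBTI1.1 was already 4.785 at 24 h. It was the only called gene of 11 measured subtilases. GH9B13, a member of the GH9 cellulase family, went from 5.37, 6.65 and 6.05 to 6.76, 9.23 and 9.09, a rise of 2.34 ± 0.50 (adjusted p = 0.00723). The 96 h array of A, at 6.76, was close to the highest 0 h array. GH9B7 of the same family fell by a small amount, from 6.50 to 6.62 at 0 h to 5.91 to 6.14 at 96 h (-0.52 ± 0.09, adjusted p = 0.000689). With a trended and robust prior its call ended (adjusted p = 0.142). No other of the 15 GH9 genes was called, while over all genes 1.33% rose and 2.35% fell. The beta-expansin gene EXPB2, whose family loosens growing walls, rose by 0.94 ± 0.19 from levels near the floor (adjusted p = 0.00433), alone among 19 expansin genes.

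Of 10 xyloglucan endotransglucosylase genes, whose products cut and rejoin xyloglucan in growing walls, 2 fell, against 2.35% of all genes, and none rose. XTH16 went from 5.29, 5.27 and 5.95 to 3.56, 3.51 and 3.58. The 96 h levels were nearly equal and all below 0 h (-1.95 ± 0.21, adjusted p = 5.09e-06). XTH19 went from 8.85, 8.24 and 8.24 to 4.00, 6.96 and 7.13 (-2.42 ± 0.65, adjusted p = 0.0356), with A far below B and C. Its call ended when the 96 h array of A was left out (difference -1.40, adjusted p = 0.232), and also without the 0 h array of A, B or C (adjusted p = 0.104, 0.0716 and 0.0802).

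Class III peroxidases are secreted enzymes, some of which polymerise lignin. Of 7 measured genes that the reference table names as such, 1 rose and 2 fell, against 1.33% and 2.35% of all genes. Members of the family that carry a locus tag alone there are not counted. The count is therefore incomplete, and genes given below by locus tag alone may belong to the family. PRX52, a peroxidase linked to lignin, stood at 0.61, 2.30 and 0.90 at 0 h and at 4.88, 3.79 and 4.37 at 96 h (3.07 ± 0.63, adjusted p = 0.0051), with no overlap. PRXR1 had the largest fall of all called genes. It went from 6.85, 5.29 and 7.26 to 0.70, 0.67 and 1.11, close to the floor in all 3 time-courses (-5.64 ± 0.41, adjusted p = 2.62e-08). Its mean was already 0.828 at 24 h. AT2G41480, listed as peroxidase 25, went from 5.17, 5.28 and 5.85 to 0.73, 3.33 and 3.1, with A lowest (-3.05 ± 0.42, adjusted p = 9.9e-05). AT5G66390 (peroxidase 72) was at the floor at 0 h and at 1.25, 0.21 and 0.30 at 96 h (adjusted p = 0.491).

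The secondary wall list held 3 measured genes of xylan synthesis and none was called, and their levels at 96 h differed by time-course. IRX15 stood at 0.54, 0.73 and 0.59 at 0 h and at 3.43, 1.28 and 1.23 at 96 h (1.36 ± 0.45, adjusted p = 0.102). GUT2, a xylan synthase subunit, went from 0.88, 0.81 and 0.89 to 2.73, 1.52 and 1.14 (0.94 ± 0.29, adjusted p = 0.0744). Both were above every 0 h array in all time-courses and highest in A. With the letter as a block both were called (adjusted p = 0.0305 and 0.0477), and leaving out the 96 h array of C also brought both under the threshold (0.0405 and 0.0123). IRX15-L was not called (-0.74 ± 0.33, adjusted p = 0.28) and its A array did not fall. The list's median difference was 1.85 in A, 0.55 in B and 0.24 in C. For transcription factors of xylem, cysteine proteases and genes of developmental cell death, none of the listed members could be matched by name. Their levels are therefore not known here, and they may be among the probe sets without a gene name.

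Most of the genes that rose furthest carry only a locus tag in the reference table, so no role is given for them. AT5G51890, which had the largest rise, stood at 0.90, 0.65 and 0.73 at 0 h and at 7.58, 3.96 and 4.47 at 96 h (4.58 ± 0.61, adjusted p = 7.15e-05). AT3G27200 went from 0.74, 0.72 and 0.93 to 8.19, 3.29 and 3.67 (4.25 ± 0.74, adjusted p = 0.00114). AT5G38610 went from 0.88, 1.17 and 1.03 to 7.78, 3.64 and 3.73 (4.02 ± 0.64, adjusted p = 0.000467). All 3 were near the floor at 0 h, above it on every 96 h array, and much higher in A than in B and C. Without the 96 h array of A they were called with smaller rises of 3.45, 2.68 and 2.66. AT2G04850 (4.24 ± 0.49), AT5G40020 (3.34 ± 0.78) and AT2G41730 (3.16 ± 0.52) were also highest in A at 96 h, at 7.15, 7.28 and 6.59 against 2.50 to 4.77 in B and C. Without the 96 h array of A the rise of AT5G40020 was 1.87 (adjusted p = 0.04). The probe set of AT2G41730 is of a kind that can also bind related transcripts. AT5G59845 reached 7.59 in A but 1.92 and 2.71 in B and C (3.44 ± 0.88, adjusted p = 0.026). Its call ended whichever of the 0 h arrays of A, B or C (adjusted p = 0.0669, 0.05 and 0.0887) or the 96 h array of A (0.0724) was left out, and without the last its rise was 1.68.

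In the next genes the 96 h array of A stood less far from those of B and C. AT2G43870 went from 0.38, 0.28 and 0.25 to 4.20, 3.75 and 3.99 (3.68 ± 0.22, adjusted p = 1.12e-09), with the smallest spread of the genes that rose most. AT1G59740, listed as NPF4.3 of the NRT1/PTR transporter family, went from 1.51, 0.71 and 1.01 to 5.99, 4.59 and 4.40 (3.92 ± 0.51, adjusted p = 4.92e-05), with A highest. PAP20, a purple acid phosphatase of a family that frees phosphate from organic compounds, differed from these in that A was lowest. Its levels were 1.04, 1.40 and 1.12 at 0 h and 3.21, 5.02 and 5.19 at 96 h (3.29 ± 0.39, adjusted p = 1.75e-05). It was the only one called of 3 genes whose symbols matched the phosphate starvation list, against 1.33% of all genes that rose. Unrelated genes can share a symbol, so the other 2 are not read as phosphate genes. The 2 probe sets without a gene name that rose most, 261766_at and 266346_at, followed both shapes. The first stood at 7.96, 4.34 and 4.79 at 96 h and the second at 4.91, 4.61 and 4.77, from 0.64 or less at 0 h (differences 5.17 ± 0.65 and 4.75 ± 0.24).

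Suspension cells can hold partly developed plastids, and the nuclear genes of photosynthesis listed here encode proteins of the thylakoids. Of 8 measured, 4 fell and none rose, against 2.35% of all genes, and the median difference was -1.31 against 0.02 over all genes. CaS, a calcium sensor of the thylakoid, went from 2.88, 3.83 and 3.50 to 0.48, 0.83 and 0.43 (-2.82 ± 0.16, adjusted p = 1.12e-09). Its mean was already 0.496 at 12 h, so the comparison of 96 h with 0 h does not date the change. PSBY, a small protein of photosystem II, went from 3.14, 3.38 and 3.65 to 0.65, 1.21 and 1.25 (-2.36 ± 0.29, adjusted p = 2.7e-05). In both genes every 96 h array was well below every 0 h array. PSBW, also of photosystem II, fell by 1.66 ± 0.27 (adjusted p = 0.000615), and PSAN, of photosystem I, by 1.45 ± 0.31 (adjusted p = 0.00622). PSAN stood at 1.22, 1.62 and 3.20 at 0 h, and without the array of C at that time its difference was -0.86 (adjusted p = 0.00952). LHCB4.1, an antenna protein gene, stood at 1.98, 2.58 and 3.17 at 0 h and 1.18, 1.26 and 1.81 at 96 h, which was not called (adjusted p = 0.0752) but was with the letter as a block (adjusted p = 0.0397). The 5 measured markers of photosynthetic cells summed to 9.50 to 12.87 at 0 h and 3.3 to 4.96 at 96 h. Of 69 genes encoded in the plastid itself none was called, and their median difference was 0.44 in A, -0.36 in B and -0.65 in C. With the letter as a block psaB, of photosystem I, and atpH, of the ATP synthase, fell (-1.75 and -1.27, adjusted p = 0.00932 and 0.0186; 0.466 and 0.223 without the block).

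CLE41 encodes the peptide that, made in phloem, holds procambium cells back from becoming xylem. It fell from 3.70, 5.90 and 5.79 to 1.26, 2.01 and 2.69, without overlap between the times (-3.14 ± 0.50, adjusted p = 0.000454). It was the only one of 6 CLE genes that was called, and of the 7 phloem and procambium markers CLE44, which encodes the same peptide, was the only other one measured. CLE44 stayed between 0.14 and 0.54 on all 6 arrays.

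FDH, formate dehydrogenase of the mitochondrion, went from 4.19, 3.56 and 5.14 to 0.71, 0.87 and 1.54 (-3.26 ± 0.34, adjusted p = 3.08e-06). BGLU44, of the beta-glucosidase family that frees sugars from glycosides, went from 3.84, 4.04 and 4.99 to 0.51, 1.07 and 0.74 (-3.52 ± 0.23, adjusted p = 7.19e-09). At 12 h the mean of BGLU44 was already 0.809, while that of FDH was 6.631. Neither gene had a 96 h level within 2 log2 units of its 0 h levels. Of 22 beta-glucosidase genes BGLU16 also fell (-1.10 ± 0.21, adjusted p = 0.00282) and BGLU28 rose (2.24 ± 0.59, adjusted p = 0.0284). The call of BGLU28 ended without the 0 h array of A or C (adjusted p = 0.0893 and 0.0833) and without the 96 h array of A or B (0.148 and 0.0817). The organic cation transporter gene OCT4 fell by 1.71 ± 0.24 (adjusted p = 0.000106) and the glycosyltransferase gene UGT85A2 by 1.89 ± 0.27 (adjusted p = 0.00016). Of 51 UDP-glycosyltransferase genes 2 fell, against 2.35% of all genes, and 1 without the 96 h array of A.

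Of the 12 genes that fell most, 9 carry a locus tag alone. They fell by between 3.14 (AT5G58390) and 4.77 (AT5G13140). AT5G13140 went from 3.54, 5.26 and 6.66 to 0.03, 0.80 and 0.32, and AT3G21770 from 7.65, 7.63 and 7.58 to 2.73, 4.03 and 4.54. In AT3G21770 the 0 h levels were nearly equal and the 96 h levels lowest in A. AT3G49220 (-3.79 ± 0.44), AT1G27030 (-3.74 ± 0.56), AT3G54400 (-3.40 ± 0.44), AT3G61490 (-3.32 ± 0.37) and AT2G46600 (-3.20 ± 0.28) had no overlap between the times. In AT2G43530 and AT5G58390 the 0 h arrays differed widely, from 1.97 in A to 6.88 in C and from 0.34 in A to 5.32 in C. The call of AT5G58390 ended without the 0 h array of B or C (adjusted p = 0.0792 and 0.112). Among probe sets without a gene name, 252678_s_at and 259544_at fell most, by 5.52 ± 0.55 and 5.37 ± 0.63.

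Breakdown of proteins in the vacuole is a step of the death programme of tracheary elements. Of 4 vacuolar processing enzymes, proteases that mature other vacuolar proteins, 1 fell and none rose, against 2.35% and 1.33% of all genes. BETA-VPE fell from 5.02, 4.64 and 4.27 to 1.68, 3.20 and 3.86 (-1.73 ± 0.37, adjusted p = 0.00634), most in A. Without the 96 h array of A the difference was -1.11 (adjusted p = 0.033). ALPHA-VPE stood at 1.98, 0.77 and 0.72 at 96 h against 0.40 to 0.64 at 0 h and was not called (adjusted p = 0.312). In the serine carboxypeptidase-like family, 29 genes were measured, of which none rose and 3 fell: scpl35 by 2.01 ± 0.32, scpl23 by 1.69 ± 0.22 and scpl26 by 1.16 ± 0.21 (adjusted p = 0.000495, 4.77e-05 and 0.0014). With the letter as a block SCPL45 rose (0.76 ± 0.26, adjusted p = 0.0248; 0.125 without the block).

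ATG8 proteins coat the membranes of autophagy, and the 2 called of 11 autophagy genes went opposite ways. Of all genes, 1.33% rose and 2.35% fell. ATG8D went from 6.90, 6.29 and 6.65 to 8.04, 7.50 and 7.41 (1.04 ± 0.25, adjusted p = 0.0174), and ATG8F from 6.39, 6.69 and 6.10 to 5.52, 4.95 and 5.07 (-1.21 ± 0.29, adjusted p = 0.0148). Neither gene's groups overlapped. The call of ATG8D ended without the 0 h array of B or C (adjusted p = 0.0993 and 0.051) or the 96 h array of A (0.122). That of ATG8F ended without the array of B at 0 h or at 96 h (0.0777 and 0.0609). With the letter as a block ATG8B rose as well (0.68 ± 0.23, adjusted p = 0.0316; 0.112 without the block).

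None of 7 listed genes of mitosis and none of 3 of DNA replication was called. POLA3, a subunit of the DNA polymerase alpha and primase complex, stood at 2.30, 2.44 and 2.54 at 0 h and 3.73, 3.54 and 2.52 at 96 h (0.84 ± 0.26, adjusted p = 0.0738), and was called with quantile normalization (0.0438) and without the 96 h array of C (0.00292). AUR1 and AUR2, kinases of the mitotic spindle, stood between 4.53 and 5.52 at 0 h and between 4.75 and 5.27 at 96 h, with differences of -0.09 ± 0.30 and 0.25 ± 0.31. A missed threshold does not show that the levels were equal. Of 7 histone genes the linker histone gene HIS1-3 (-1.52 ± 0.36, adjusted p = 0.0133) and the linker-histone-like gene HON4 (-0.94 ± 0.22, adjusted p = 0.0128) fell. The share that fell over all genes, 2.35%, stands beside this count and that of the tubulin genes below. With the letter as a block the histone H2B gene HTB1 rose (0.83 ± 0.32, adjusted p = 0.0415; 0.187 without the block). The call of HIS1-3 ended without the array of C at 0 h or at 96 h (adjusted p = 0.0827 and 0.06), and that of HON4 without the 0 h array of B or C (0.0562 and 0.0694) or the 96 h array of A (0.0728). Of 7 tubulin genes TUB5 fell from 5.48, 4.25 and 4.67 to 2.37, 2.94 and 4.28 (-1.60 ± 0.42, adjusted p = 0.0292), with the 96 h array of C above the 0 h array of B. Its call ended without the arrays of A at 0 h or 96 h (adjusted p = 0.135 and 0.192), B at 96 h (0.095) or C at 0 h (0.0694).

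Of 16 sugar transporter genes of the SWEET family only SWEET17, a vacuolar fructose carrier, was called. It fell by 1.39 ± 0.30 (adjusted p = 0.00812), and its call ended without the 0 h array of C (0.0687). GSTU27, 1 of 14 glutathione transferase genes, fell by 1.78 ± 0.42 (adjusted p = 0.0156), with the 0 h array of C at 4.1 against 1.99 and 1.94 in A and B. Its call ended without that array (difference -1.07, adjusted p = 0.0924) or the 96 h array of A (0.0774). With the letter as a block GSTL3 of the same list fell as well (-1.01 ± 0.30, adjusted p = 0.00631; 0.0592 without the block). No gene was called among 23 TBL wall acetyltransferases, 15 tetraspanins, 11 RALF-like peptides, 11 dehydration and cold proteins and 16 genes encoded in the mitochondrion. Over all genes 1.33% rose and 2.35% fell, so these counts do not set lists this short apart from all genes. Many members never had a level above 2: 14 SWEET, 10 glutathione transferase, 14 TBL and 8 tetraspanin genes. The same held for 5 RALF-like, 3 dehydration and cold and 4 mitochondrial genes. With the letter as a block TBL35 fell (-0.52 ± 0.18, adjusted p = 0.0488; 0.111 without the block) and the mitochondrial nad1, a subunit of respiratory complex I, rose (1.59 ± 0.49, adjusted p = 0.00371; 0.073 without). The other probe sets of nad1, with differences from -0.06 to 1.24, were not called without the block. The mitochondrial list had a median difference of 1.18 in A, 0.28 in B and 0.03 in C.

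**Figure D3:**
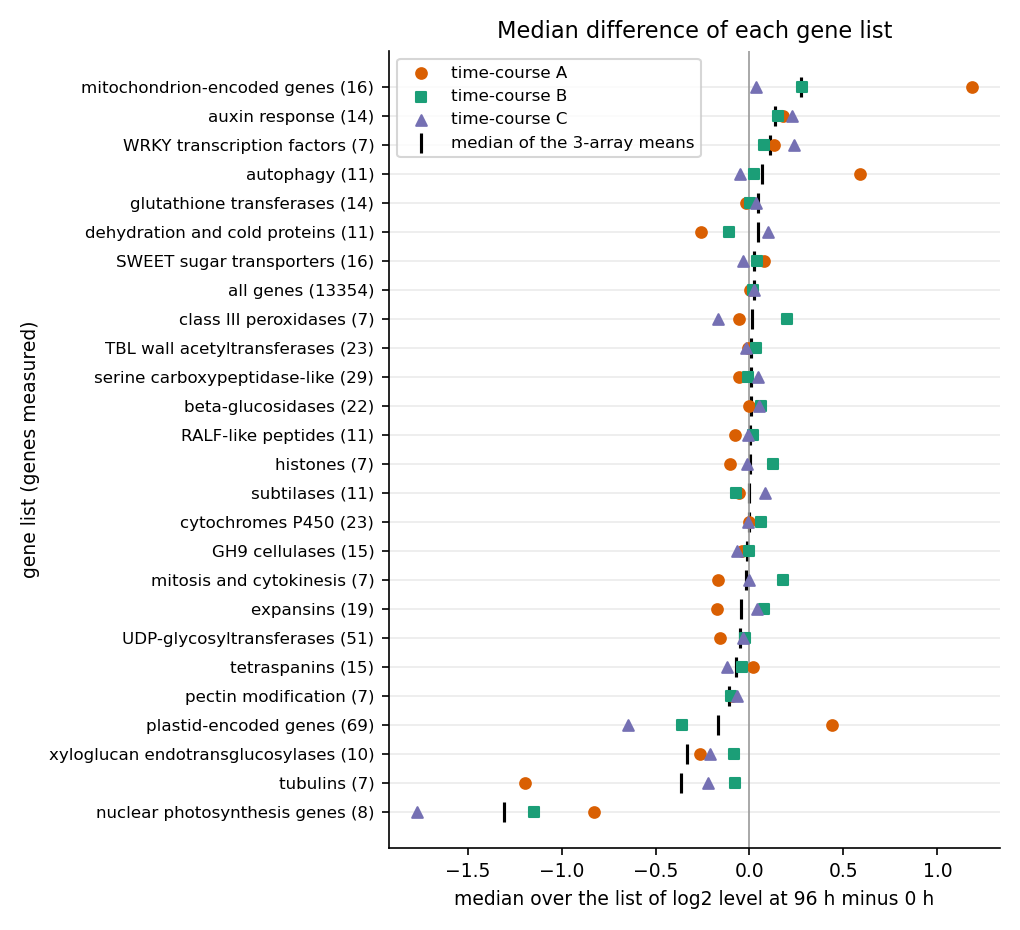
Median over each gene list, for lists with 7 or more measured genes, of the log2 level at 96 h minus 0 h (horizontal axis) in time-courses A, B and C (coloured points) and of the 3-array means (black bars). The nuclear photosynthesis genes lie lowest, at -1.31, and the mitochondrion-encoded and plastid-encoded lists are those in which A stands furthest above B and C.

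The letters were next compared by their own differences, 96 h minus 0 h, which share no array. A difference of more than 1 was reached upwards by 1263 probe sets in A (5.55%), 623 in B (2.74%) and 431 in C (1.9%), and downwards by 1484 in A (6.53%), 965 in B (4.24%) and 815 in C (3.58%). B and C shared 262 of those that were higher, 42.1% of B's and 60.8% of C's, and 412 of those that were lower, 42.7% and 50.6%. A and B shared 227 of the higher ones, 18% of A's and 36.4% of B's, and A and C 198, 15.7% of A's and 45.9% of C's. Opposite differences of more than 1 were found for 73 probe sets between A and B, 67 between A and C and 6 between B and C. In all 3 letters, 158 probe sets were higher and 232 lower by more than 1. A alone passed 1, with B and C both within 0.5 of 0, for 478 higher and 450 lower probe sets.

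**Figure D4:**
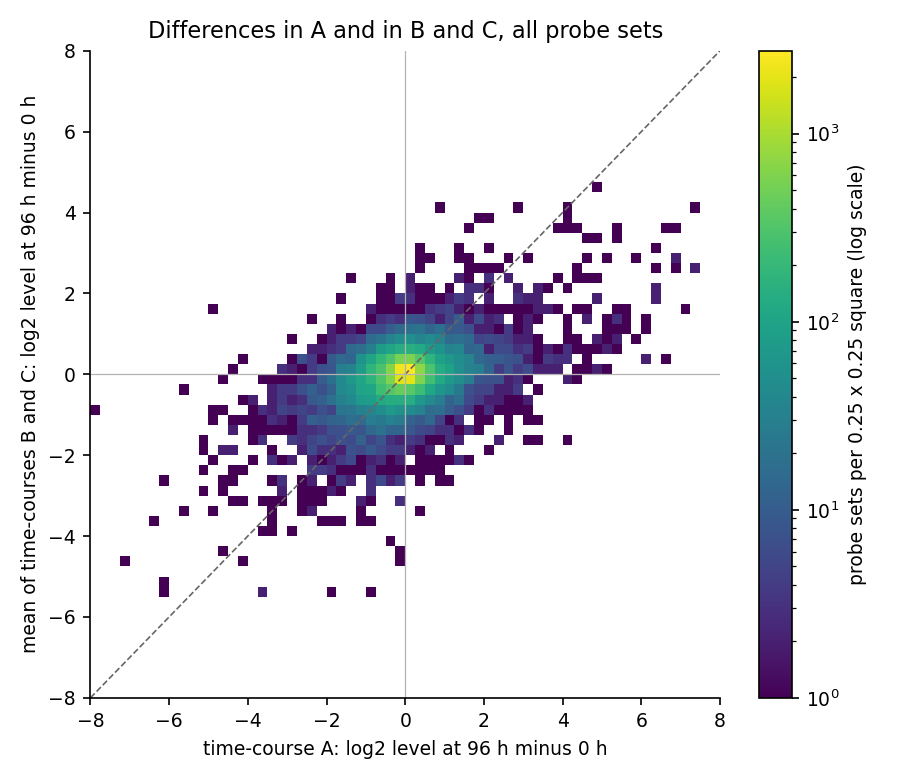
All 22743 probe sets by their log2 level at 96 h minus 0 h in time-course A (horizontal axis) and by the mean of that difference in B and C (vertical axis), with the number of probe sets per square on a log colour scale and equality as a dashed line. An arm of probe sets on the right is high in A and near 0 in B and C, as is AT1G24000 with 6.53 in A against 0.22 and 0.29.

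The genes in which A stood furthest from B and C are given as a description, since they were chosen by that gap. AT1G24000 was 6.53 higher at 96 h in A and 0.22 and 0.29 higher in B and C. GSTU25, a tau-class glutathione transferase of a family that detoxifies, was 6.15 higher in A and 0.47 and 0.09 higher in B and C. AT4G18425 gave 6.07, 0.34 and 0.55. For AT5G59845, rpl20 (a protein gene of the plastid ribosome) and AT1G70500 the gap between A and the mean of B and C was 5.61, 5.04 and 4.96. Opposite gaps were found in AT5G52390, which was 5.51 lower in A and 0.35 and 0.27 lower in B and C, and in AT3G03150, 4.57 lower in A against 0.70 and 0.92. AT1G52070, AT5G62210, the cellulase gene GH9B8 and XTH19 had gaps of -4.43, -3.78, -3.77 and -3.66. GH9B8 stood at 2.39 in A at 96 h but at 6.14 and 5.96 in B and C, above all their 0 h levels, which were 4.82 to 5.52. Of these genes XTH19 and AT5G59845 were called, and both lost their call without the 96 h array of A, as given above.

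Whether 96 h differed from the time before it was tested against 84 h in the same fit. No probe set passed (0%), although 787 had an unadjusted p under 0.05. Without the 96 h array of A, 66 probe sets were higher and 49 lower at 96 h than at 84 h (115, 0.506%), or 90 and 63 with the letter as a block. With arrays weighted by their fit, in which the 96 h array of A had a weight of 0.33, 23 were higher and 21 lower. The 115 probe sets called without the 96 h array of A took in 24 genes that were higher and 19 that were lower.

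Of those 19 genes 17 had a mean level at 60 h more than 1 above that at 0 h, and of the 24 genes 17 had one more than 1 below. Over all 13354 genes these shares were 2.64% above and 5.02% below. AT5G38610, at a mean of 7.63 at 60 h and 6.37 at 84 h, stood at 7.78 in A and at 3.64 and 3.73 in B and C at 96 h. The difference from 84 h without A was -2.68 ± 0.26 (adjusted p = 1.12e-05). OCT1, an organic cation transporter gene, showed the reverse course. It had levels of 4.60, 8.47 and 8.57 at 0 h, a mean of 0.62 at 60 h and 2.73 at 84 h, and stood at 1.11, 6.17 and 5.85 at 96 h. Without A it was 3.28 ± 0.70 above 84 h (adjusted p = 0.0332). Against 0 h it was not called (-2.83 ± 0.94, adjusted p = 0.103), but it was with the letter as a block (0.0417) and without the 0 h array of A (0.00503) or the 96 h array of B or C (0.0334 and 0.0457). LCR68, a small cysteine-rich protein gene, went from 9.89, 10.79 and 10.93 at 0 h to a mean of 3.84 at 60 h and 7.98 at 84 h, and stood at 8.38, 10.38 and 10.43 at 96 h. Without A it was 2.43 ± 0.53 above 84 h (adjusted p = 0.0396), and against 0 h it was not called (adjusted p = 0.595).

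**Figure D5:**
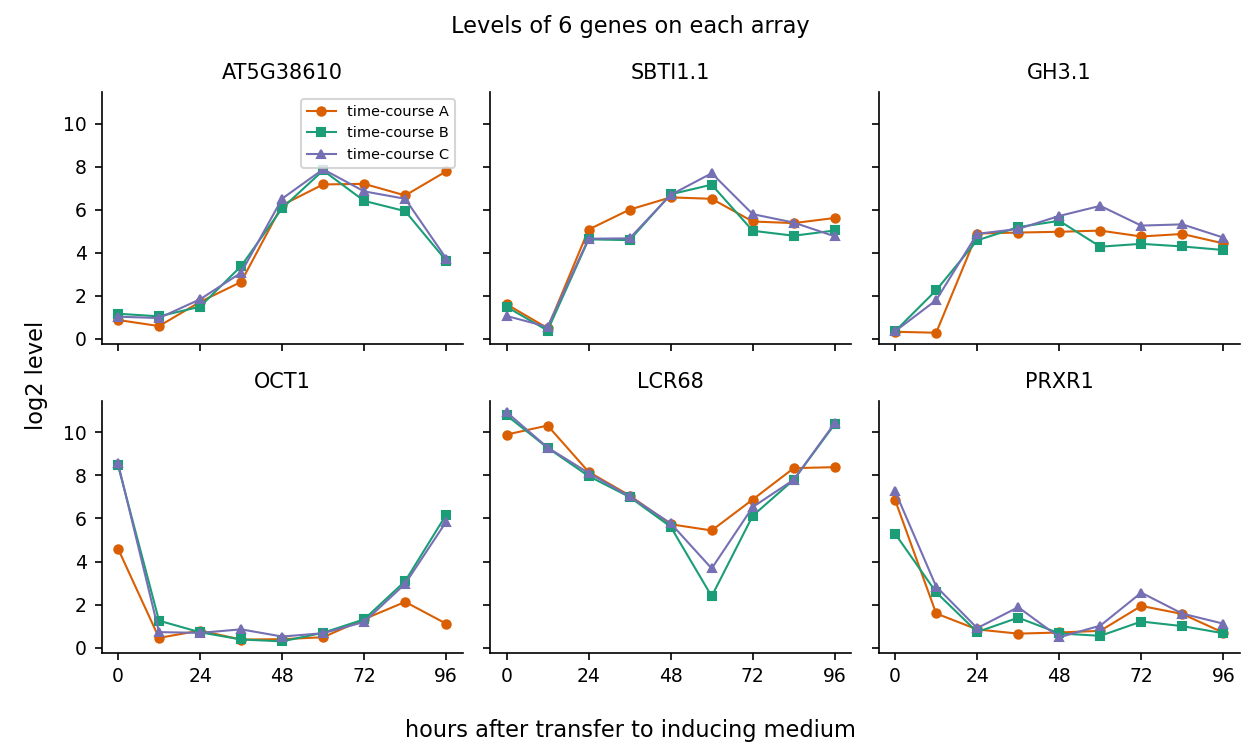
Log2 level (vertical axis) of 6 genes on each array over the 9 times (horizontal axis, hours), with 1 line for each time-course. AT5G38610 is at 7.78 in A at 96 h and at 3.64 and 3.73 in B and C, OCT1 at 1.11 against 6.17 and 5.85, and LCR68 at 8.38 against 10.38 and 10.43, while for SBTI1.1, GH3.1 and PRXR1 the 3 time-courses lie within 1 of each other at that time.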

How the data were processed

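Total RNA was read on single-colour arrays. The deposited values are log2 levels that the authors made with RMA, per the submitters' processing notes (RMA's version: not given in the sources used here). Base 2 of the logarithm is read from how far the values reach. The tests leave out 64 control rows and 3 rows that lack a value, of 22810. A single gene was matched for 13434 tested probe sets, through the platform annotation and a RefSeq table (assembly TAIR10.1), and the probe set with the highest mean stood for a gene. limma 3.58.1 in R 4.3.3 (lmFit, contrasts, eBayes) fitted 1 mean per time to all 27 arrays, with Benjamini-Hochberg adjustment over all probe sets. The script was tested on simulated data.

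The members, lists and tests were chosen with earlier results of these data known. Named are the 12 largest rises and 12 largest falls among called genes with 1 sign in all letters, up to 4 members of each list with the largest difference, the 6 genes furthest above and below in A and 2 unnamed probe sets each way. The genes of the comparison of 84 h without the 96 h array of A, list members named because a block or another setting called them, and those in the closing observations were chosen after their values were seen. Not every listed member is printed, and called members that are not printed are outside the counts of named genes.

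The letters pair the arrays because the design text ties them to time-courses. Deviations from the time means correlated between 0 h and 96 h at 0.226 in A, 0.367 in B and 0.267 in C. The labels call the time-courses independent and say no more of the cultures, so p-values measure the spread between these samples. Alternatives were the letter as a block, scaling, a filter, fewer arrays, array weights, another prior and the GAPDH covariate.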

Additional observations from a re-analysis of the deposited data

How the results depend on the processing

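For 96 h against 0 h, 1025 probe sets were called. The replicate block, which pairs arrays by letter, gave 1554 and the GAPDH difference as a covariate 1677. The arrays of both times alone gave 31, and 16 with the replicate block as well. Without time-course B 411 were called, and leaving out 1 array at a time gave 612 to 1158. For 96 h against 84 h, 0 were called, 44 with array weights and 153 without the 96 h array of A with the replicate block. Leaving out 1 array at a time gave 0 to 115, and the 115 came without the 96 h array of A. The fit of both times alone has fewer degrees of freedom; for the other shifts the cause was not tested. The fits that join the replicate block to a smaller set of arrays were added after seeing the data.

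Of the genes named, 90 were recomputed in 1521 results. Of these results 1266 kept direction and side of the threshold, 183 lost a call, 55 gained one and 17 changed sign. The replicate block ended no call and added 12 (IRX15, GUT2, OCT1, LHCB4.1, TBL35, nad1, GSTL3, psaB, atpH, SCPL45, ATG8B and HTB1). Without time-course B calls ended for IAA29, GH9B13, EXPB2, XTH19, BGLU28, AT5G59845, AT2G43530, AT5G58390, CLE41, PSAN, BETA-VPE, ATG8D, ATG8F, scpl35, scpl26, HON4, TUB5, GSTU27, OCT4, SWEET17 and 6 others. The sign changes were all in uncalled genes. GH9B8 turned to 0.49 with array weights and 0.82 without the 96 h array of A with the replicate block, and ran from -1.03 to 0.84 without single arrays. AT5G62210 turned to -0.33 without time-course B and ran from -0.44 to 0.94 without single arrays. rpl20 turned to 0.023 after median centring and 0.85 without time-course B, and ran from -1.08 to 1.35 without single arrays. AUR1 ran from -0.37 to 0.066 without single arrays. Without the 96 h array of A and with the replicate block, AUR1 and AT5G52390 gave 0.003 and LCR68 0.024.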

Other observations

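Genes in this section were picked after their values were seen. Aldehyde dehydrogenases oxidise aldehydes and in part make the osmolyte glycine betaine or clear stress products. Of 8 measured genes 4 fell and none rose, against 2.35% of all genes that fell, and the family's median difference was -0.66. Because the family was picked after its values were seen, this share is no test. In another family looked at, the NDA, NDB and NDC dehydrogenases of NAD(P)H, 2 of 5 genes rose and none fell, against 1.33% of all genes that rose. ALDH10A9 went from 6.31, 6.11 and 6.03 to 5.18, 5.33 and 5.24 (-0.90 ± 0.15, adjusted p = 0.000479). ALDH10A8 (-1.01), ALDH11A3 (-0.98) and ALDH7B4 (-0.93) had adjusted p of 0.0163, 0.017 and 0.0163. The call of ALDH10A8 ended without the array of A at 0 h or 96 h (0.0765 and 0.118), that of ALDH11A3 without the 0 h array of B or C or the 96 h array of A (0.0849, 0.116 and 0.132), and that of ALDH7B4 without the 0 h array of B or C or the 96 h array of B (0.0519, 0.0605 and 0.0979).

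SIM, an inhibitor of cyclin-dependent kinases that turns dividing cells to endoreduplication, stood at 0.49, 0.25 and 0.66 at 0 h and reached 3.49, 2.11 and 1.68 by 96 h (1.96 ± 0.32, adjusted p = 0.000605), with A highest. RCA, the activase of Rubisco, went from 2.28, 1.71 and 2.92 to 0.62, 0.52 and 0.62 (-1.72 ± 0.32, adjusted p = 0.00224). ATPC1, a subunit of the ATP synthase of chloroplasts, fell by 0.74 ± 0.16 (adjusted p = 0.00603). Neither is on the list of nuclear photosynthesis genes, and in both every 96 h array was below every 0 h array.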
